A study of Mus musculus with 9 samples.

Results

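The 10 immediate early genes described here are Fos, Fosb, Jun, Junb, Egr1, Egr3, Arc, Npas4, Nr4a1 and Dusp1. They were taken from the 47729 gene rows of each count file by Ensembl identifier, 1 row per symbol. All 10 passed the filter on low counts that left 17671 genes for testing. RNA was sequenced from the dissected midbrain of 180-day-old C57/Bl6 mice. All mice carried Pitx3-Cre on 1 allele and a Rosa-lox-stop-lox-Yfp reporter, so the controls share both with the mutants, and they differed in Dot1l: Dot1l(+/+), Dot1l(fl/+), with 1 floxed allele, or Dot1l(fl/fl), with 2. They are called controls, heterozygotes and homozygotes where values are listed. Each genotype had 3 libraries, each from a pool of 3 mice. The design text given for the series speaks instead of sorted embryonic cells, and the sample labels and the study's methods for adult animals were followed. Dot1l is the methyltransferase of histone H3 lysine 79. Cre is driven by the Pitx3 locus, which in the midbrain is active in dopamine neurons, whereas the dissected tissue also holds glia and other neurons in which Dot1l is not recombined. In such bulk tissue, fewer cells of a type and less RNA per cell cannot be told apart.

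Immediate early genes are transcribed within minutes of synaptic input, growth factors or stress, without prior protein synthesis. Calcium and cAMP act through CREB at cAMP response elements, and MAP kinases act through serum response factor and its partners at CArG boxes. Fos and Fosb pair with Jun or Junb in the AP-1 factor, Egr1 and Egr3 are zinc finger factors, Npas4 is a calcium-dependent factor of neurons, Nr4a1 is an orphan nuclear receptor, Arc is a synaptic protein that acts on AMPA receptor endocytosis, and Dusp1 is a phosphatase that switches MAP kinases off. Their transcripts are short-lived, so that tissue levels depend on what the animal and the tissue met shortly before freezing.

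Promoter sequence from RefSeq on GRCm38.p6 was found for 7 members, and Egr1, Egr3 and Arc had no entry. The 200 bases before each start were searched on both strands for the cAMP response element (CRE, TGACGTCA), its core TGACG, the AP-1 site TGANTCA, the TATA box TATAAA, the EGR core GCGTGGGCG and the CArG box. The full CRE also holds the core. The core was present in 15.7% of the 32843 promoters of the table, the full CRE in 1.47%, the TATA box in 9.96%, the AP-1 site in 5.48%, the CArG box in 1.18% and the EGR core in 0.490%. Of the 7 members, all but Jun held the core, only Fos held the TATA box, and none held the AP-1 site, the CArG box or the EGR core. The stretches given are those of 4 members that differed widely between the Dot1l(fl/+) pools and of Jun, which hardly differed between them. Whether the motifs go with this difference was not tested. Each runs 5′ to 3′ on the strand of its gene, and capitals mark the CRE core on either strand and the TATA box. Fos (chr12:85473690-85473889, + strand) held cores that begin 129 and 66 bases before the start and a TATA box that begins 33 bases before it. Junb (chr8:84978749-84978948, - strand) held 1 core, 106 bases before the start. Nr4a1 (chr15:101266646-101266845, + strand) held 2 on the opposite strand, which begin 69 and 40 bases before the start. Dusp1 is shown from 200 to 51 bases before its start (chr17:26508523-26508672, - strand). It held the only full CRE, 143 bases before the start, and another core 191 bases before it. Jun (chr4:95052223-95052422, - strand) held no exact match to any of the 6 motifs in this window. It does hold tgacatca, which differs from the CRE in 1 letter. A match describes the letters only. Near matches were not searched for, and no match says nothing of them or of elements farther away.
Fos: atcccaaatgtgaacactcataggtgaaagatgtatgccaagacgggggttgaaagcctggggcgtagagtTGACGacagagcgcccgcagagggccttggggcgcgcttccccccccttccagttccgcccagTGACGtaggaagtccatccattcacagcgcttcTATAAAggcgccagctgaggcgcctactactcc
Junb: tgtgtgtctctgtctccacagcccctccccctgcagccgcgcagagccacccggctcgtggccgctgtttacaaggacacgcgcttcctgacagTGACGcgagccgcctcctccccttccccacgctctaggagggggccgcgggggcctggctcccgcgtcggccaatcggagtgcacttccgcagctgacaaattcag
Nr4a1: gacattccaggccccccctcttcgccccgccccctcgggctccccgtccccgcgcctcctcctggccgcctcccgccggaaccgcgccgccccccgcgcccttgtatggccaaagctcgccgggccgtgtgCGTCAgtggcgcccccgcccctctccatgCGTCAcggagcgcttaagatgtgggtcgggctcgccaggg
Dusp1: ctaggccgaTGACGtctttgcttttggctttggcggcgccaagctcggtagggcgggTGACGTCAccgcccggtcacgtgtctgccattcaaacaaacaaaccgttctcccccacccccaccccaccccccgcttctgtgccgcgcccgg
Jun: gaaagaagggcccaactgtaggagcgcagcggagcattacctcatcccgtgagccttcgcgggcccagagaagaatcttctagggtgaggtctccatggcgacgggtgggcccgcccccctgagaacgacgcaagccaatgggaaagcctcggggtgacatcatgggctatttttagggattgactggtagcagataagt

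Library totals ranged from 16422135 to 28403218 counts. The libraries labelled Dot1l(fl/+) replicates 2 and 3 stood apart: each was the highest or the lowest library for more genes than any of the other 7 libraries, and they carry most of the spread described here. Dot1l itself, counted over the whole gene, lay between 60.6 and 85.1 CPM (counts scaled to library size by the trimmed mean of M values, TMM) in the 9 libraries. Its log2 difference between Dot1l(fl/fl) and Dot1l(+/+) was -0.07 ± 0.09 (SE, n = 3 pools each, edgeR adjusted p = 0.999). Only exon 5 is floxed and most cells lack Cre, so this count does not check the deletion. Of the dopamine neuron genes, Th, which encodes tyrosine hydroxylase, was present in every library at 44.5 to 84.3 CPM, whereas Pitx3 stayed at 0.121 to 0.858 CPM.

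Per kilobase of annotated exon, the members covered a wide range of level in the control midbrain. Jun was the most abundant at 34.8 ± 4.55 CPM per kb (SD, n = 3), followed by Arc at 17.6 ± 0.148, Egr1 at 12.9 ± 0.936, Fos at 10.6 ± 1.05, Junb at 10.3 ± 1.15, Nr4a1 at 6.54 ± 0.878, Dusp1 at 5.33 ± 0.359, Egr3 at 2.67 ± 0.261, Npas4 at 1.72 ± 0.215 and Fosb at 0.688 ± 0.0990 CPM per kb. Fos and Junb, and likewise Nr4a1 and Dusp1, overlapped between control libraries, while the other neighbours in this order did not.

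Fos (ENSMUSG00000021250, chr12:85473890-85477273, + strand, GRCm38) had the widest range as a ratio, with its highest library at 3.14 times its lowest. It was measured at 27.1, 25.1 and 22.2 CPM in the 3 control libraries, at 30.02, 42.0 and 13.4 CPM in heterozygotes, and at 26.4, 27.9 and 19.8 CPM in homozygotes, in the order of replicates 1 to 3 as throughout. The highest and the lowest library were thus both Dot1l(fl/+), and all 3 genotypes overlapped. Junb (ENSMUSG00000052837, chr8:84974484-84978718, - strand), its AP-1 partner, was at 26.7, 21.6 and 22.7 CPM in controls, at 23.5, 39.7 and 14.6 in heterozygotes, and at 24.3, 20.4 and 20.6 in homozygotes. Again replicates 2 and 3 of Dot1l(fl/+) were the extremes. Its gene model overlaps Prdx2, which was at 130 to 156 CPM, on the other strand by 351 bases, and the sources used here do not say whether reads were counted by strand.

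Fosb (ENSMUSG00000003545, chr7:19302696-19310051, - strand), whose splice form ΔFosB is known for its persistence after repeated stimulation, was the one member whose Dot1l(fl/fl) and Dot1l(+/+) libraries did not overlap. The same held for 10.3% of all genes. It was at 4.91, 4.29 and 3.68 CPM in controls, at 4.15, 6.71 and 3.51 in heterozygotes, and at 5.99, 5.65 and 6.30 in homozygotes. All 3 Dot1l(fl/fl) libraries lay above all 3 controls, yet the highest value of all was a Dot1l(fl/+) library. Jun (ENSMUSG00000052684, chr4:95049034-95052222, - strand) was at 128, 101 and 105 CPM in controls, at 107, 100.1 and 99.0 in heterozygotes, and at 107, 105 and 103 in homozygotes. Apart from Dot1l(+/+) replicate 1, its libraries lay close together. The antisense gene Junos, which overlaps Jun by 689 bases, had at most 1.64 CPM.

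Egr1 (ENSMUSG00000038418, GRCm38 chromosome 18, + strand) and Arc (ENSMUSG00000022602, chr15:74669083-74672570, - strand) are both widely used as markers of recent neuronal activity. For Egr1 the values were 57.4, 62.4 and 54.1 CPM in controls, 63.0, 89.4 and 36.6 in heterozygotes, and 59.9, 63.6 and 45.8 in homozygotes. Arc was at 53.3, 53.7 and 54.2 CPM in controls, at 55.3, 84.3 and 35.1 in heterozygotes, and at 55.2, 49.3 and 36.5 in homozygotes. The control libraries were tight for Arc, and Dot1l(fl/fl) replicate 3 was nearly as low as Dot1l(fl/+) replicate 3. Egr3 (ENSMUSG00000033730, chr14:70077203-70082614, + strand) ranged less, at 12.9, 10.6 and 11.8 CPM in controls, 10.5, 14.7 and 9.99 in heterozygotes, and 13.8, 12.4 and 12.1 in homozygotes.

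Npas4 (ENSMUSG00000045903, chr19:4984355-4990316, - strand) was at 7.94, 6.18 and 7.28 CPM in controls, at 10.3, 8.90 and 4.04 in heterozygotes, and at 7.79, 5.65 and 4.79 in homozygotes. Its highest library was Dot1l(fl/+) replicate 1, and its lowest was again Dot1l(fl/+) replicate 3. Nr4a1 (ENSMUSG00000023034, chr15:101254269-101274795, + strand) was at 22.8, 26.1 and 19.9 CPM in controls, at 26.0, 40.0 and 16.02 in heterozygotes, and at 25.3, 24.4 and 17.1 in homozygotes. Dusp1 (ENSMUSG00000024190, chr17:26505590-26562128, - strand) was at 19.0, 17.1 and 16.8 CPM in controls, at 22.0, 22.6 and 12.8 in heterozygotes, and at 17.9, 17.8 and 12.9 in homozygotes. In all of these, the genotypes overlapped. The Dusp1 model overlaps Ergic1, at 90.6 to 102 CPM, on the other strand by 640 bases, so that for Junb and Dusp1 reads of a more abundant neighbour may be included.

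**Figure D1:**
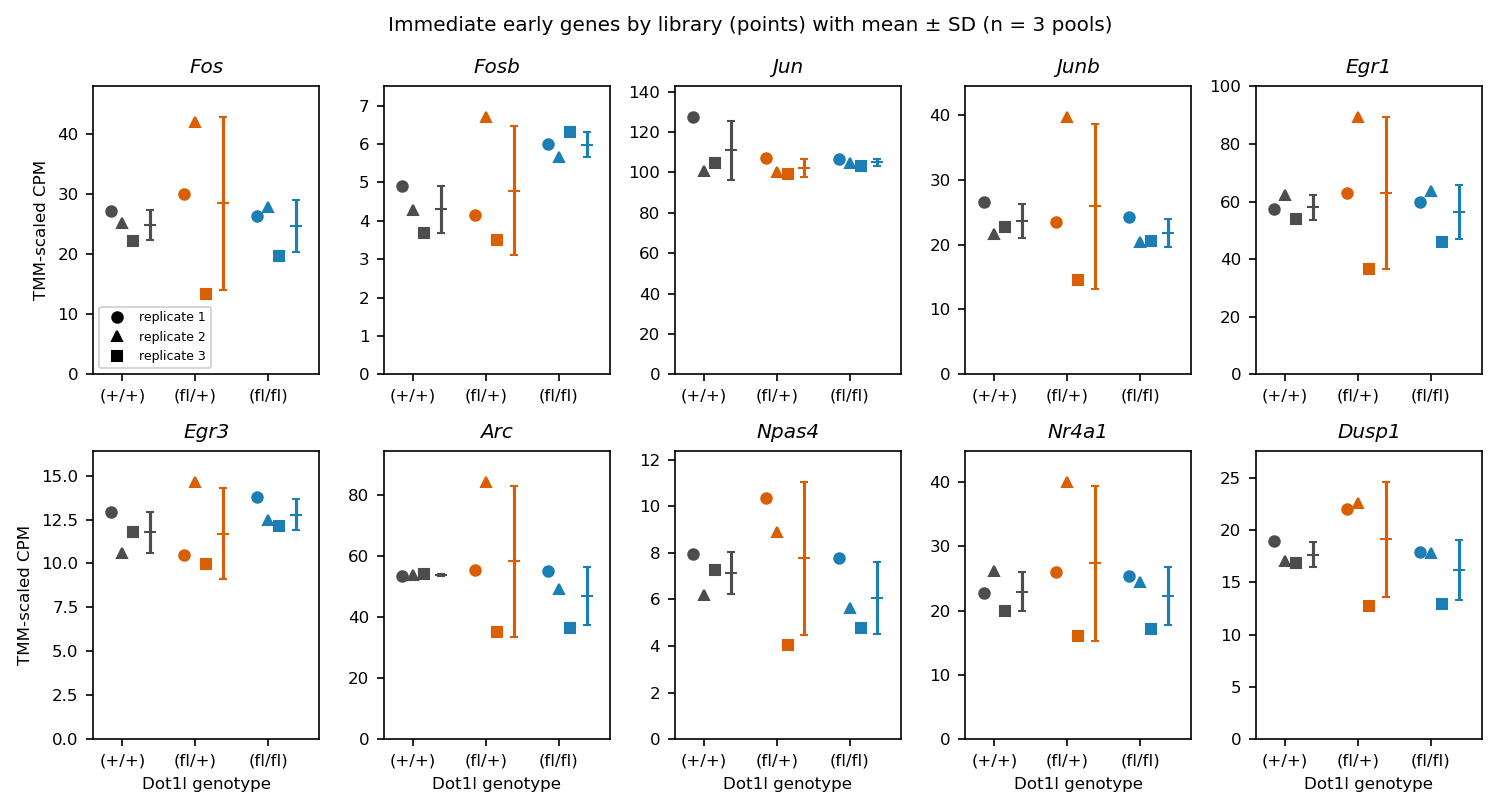
TMM-scaled CPM (y axis, from 0) of each member in each library, by Dot1l genotype (x axis); points are libraries, with symbols for the replicate number, and bars give the mean ± SD of 3 pools. Replicate 2 of Dot1l(fl/+) is the highest library for 8 members and replicate 3 of Dot1l(fl/+) the lowest for 10.

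To ask whether loss of 1 or 2 Dot1l alleles went with the level of these genes, the genotypes were compared with edgeR over all 17671 genes. No member passed an adjusted p of 0.05 in any comparison, and neither did any other gene (0.0% called in each). Between Dot1l(fl/fl) and Dot1l(+/+), 1 of 10 members, Fosb, had an unadjusted p under 0.05, beside 3.93% of all genes (694 genes). Its log2 difference was 0.48 ± 0.21 (SE, n = 3 pools each, edgeR adjusted p = 0.999, and 0.382 to 1.00 over the alternatives). The unadjusted p was no longer under 0.05 when any 1 of Dot1l(+/+) replicates 2 and 3 and Dot1l(fl/fl) replicates 1 and 3 was left out, with log2 differences of 0.38 to 0.49. Libraries that did not overlap were found for 1 of 10 members, again Fosb, and for 10.3% of all genes. For the other 9 members the log2 differences lay between -0.22 (Npas4) and 0.12 (Egr3), and Fos was at 0.00 ± 0.28 (SE). The median over the members was -0.06, beside 0.00 over all genes. A margin of 2 SE around these values leaves room for differences of up to -0.76 for Npas4 and 0.56 for Fos, while for Jun it spans -0.23 to 0.07.

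Between Dot1l(fl/+) and Dot1l(+/+), 0 of 10 members had an unadjusted p under 0.05 by edgeR (8.40% of all genes, 1484 genes) and 0 had libraries that did not overlap (13.3% of all genes). The fitted value was above 0 for 8 members, from 0.12 for Arc to 0.26 for Nr4a1, and the median was 0.12. The direction turned with 1 library. Without Dot1l(fl/+) replicate 2 the median was -0.18, and 7 of these 8 members turned below 0, to between -0.31 for Junb and -0.020 for Dusp1, with Npas4 at 0.0095. Without Dot1l(fl/+) replicate 3, in contrast, the median was 0.39, and 7 members (Fos, Junb, Egr1, Arc, Npas4, Nr4a1 and Dusp1) had an unadjusted p under 0.05, each with an adjusted p of 0.849 (edgeR), beside 5.65% of all genes tested in that fit. Without both of these libraries, which leaves Dot1l(fl/+) replicate 1 alone, the median was 0.08.

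Between Dot1l(fl/fl) and Dot1l(fl/+), 0 of 10 members had an unadjusted p under 0.05 by edgeR (6.48% of all genes, 1145 genes) and 0 had libraries that did not overlap (11.1% of all genes). The median was -0.21, with Npas4 the lowest at -0.34 ± 0.27 and Fosb the highest at 0.31 ± 0.20 (SE). It became 0.14 when replicate 2 of the heterozygotes was left out and -0.49 when their replicate 3 was, and -0.18 without both. The count of members under an unadjusted p of 0.05 became 2 without replicate 2 (9.79% of all genes), namely Fosb at 0.64 (adjusted p = 0.190, edgeR) and Egr3 at 0.33 (adjusted p = 0.364, edgeR). Without replicate 3 it became 7 (4.90% of all genes), namely Fos, Junb, Egr1, Arc, Npas4, Nr4a1 and Dusp1, each with an adjusted p of 0.951 (edgeR). Arc, at -0.30 ± 0.23 (SE), passed the adjusted threshold with no filter on low counts (adjusted p = 0.0146, edgeR, and 0.0146 to 1.00 over the alternatives). The comparisons share libraries, so their values are not independent. A test of any difference among the 3 genotypes gave 0 of 10 members an unadjusted p under 0.05 and none an adjusted one (6.45% and 0.0% of all genes), with the smallest adjusted p for Fosb at 0.788 (edgeR F test). With DESeq2 on all 9 libraries, 3 genes passed between heterozygotes and controls, 3 between homozygotes and controls and 14 between homozygotes and heterozygotes, and no member was among them.

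**Figure D2:**
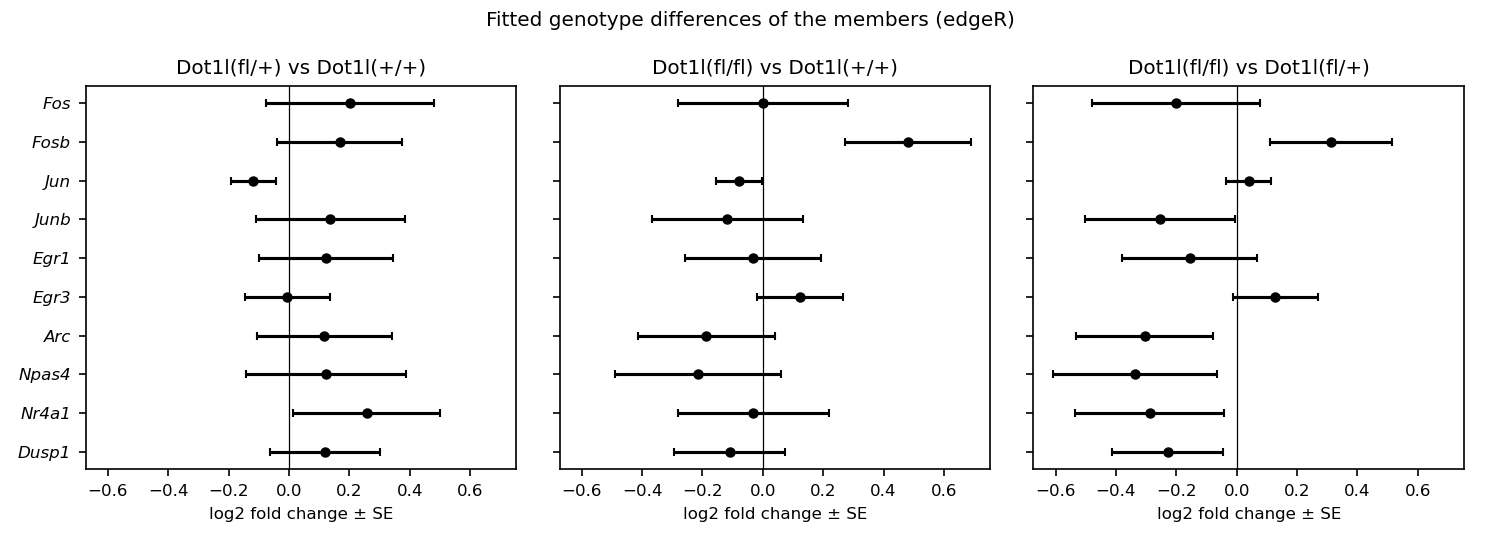
Fitted log2 fold change (x axis, points) with its SE (bars) of each member (y axis) in the 3 genotype comparisons, from edgeR on 9 libraries. Fosb in Dot1l(fl/fl) vs Dot1l(+/+), at 0.48, lies farthest from 0, and the bars of Jun are the shortest.

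Most members varied widely between pools of 1 genotype. The SD of log2 CPM within genotypes was 0.52 for Fos, 0.47 for Npas4, 0.44 for Nr4a1, 0.43 for Junb, 0.41 for Egr1 and for Arc, 0.31 for Dusp1, 0.30 for Fosb, 0.20 for Egr3 and 0.11 for Jun (6 residual degrees of freedom), beside a median of 0.13 over all genes. Set against the 500 genes nearest in level, 7 members were above the 95th percentile, namely Fos, Junb, Egr1, Arc, Npas4, Nr4a1 and Dusp1. Fosb stood at percentile 89.2, Jun at 86.6 and Egr3 at 85.4. Single libraries carried much of it. Without Dot1l(fl/+) replicate 3 the SD was 0.25 for Fos, 0.27 for Junb, 0.23 for Egr1, 0.26 for Npas4 and 0.18 for Dusp1, and without Dot1l(fl/+) replicate 2 it was 0.16 for Fosb, 0.25 for Junb and 0.11 for Egr3. That of Jun was 0.047 without Dot1l(+/+) replicate 1. The tagwise biological coefficient of variation ran from 6.95% for Jun to 23.9% for Fos, and was 8.81% in common for all genes.

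This spread was unequal among the genotypes. In Dot1l(+/+) the highest pool was at most 1.34 times the lowest for any member, and 0 of 10 members exceeded 1.5 times (14.7% of all genes). In Dot1l(fl/+) 8 of 10 did (17.9% of all genes), with Fos at 3.14, Junb at 2.72, Npas4 at 2.56, Nr4a1 at 2.50, Egr1 at 2.45, Arc at 2.40, Fosb at 1.91 and Dusp1 at 1.77 times. Egr3 at 1.47 and Jun at 1.08 did not. In Dot1l(fl/fl) 2 of 10 did (15.7% of all genes), namely Npas4 at 1.63 and Arc at 1.51 times. The median SD of log2 CPM of the members was 0.15 in controls, 0.64 in heterozygotes and 0.26 in homozygotes, where the medians of all genes were 0.10, 0.13 and 0.10. Within Dot1l(+/+), 2 members lay above the 95th percentile of SD among the 500 genes nearest in level, Jun (SD 0.18, percentile 99.2) and Nr4a1 (percentile 96.8), and Arc was the lowest at percentile 2.20. In Dot1l(fl/+) 7 did and Jun was the lowest at percentile 35.2, and in Dot1l(fl/fl) 6 did, with Jun the lowest at 14.4. No test compared the spread of the genotypes, each of which has 3 pools.

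**Figure D3:**
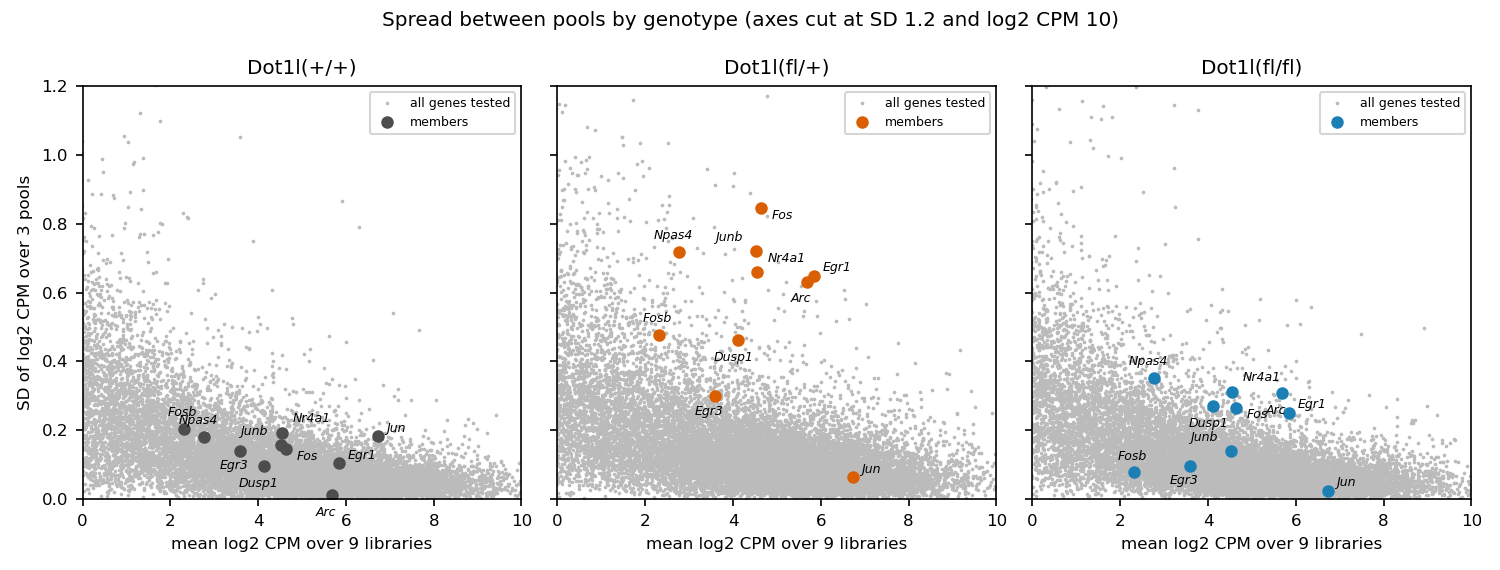
SD of log2 CPM over the 3 pools of a genotype (y axis) against the mean log2 CPM over 9 libraries (x axis), for all genes tested (grey) and the members (coloured), 1 panel per genotype. In Dot1l(+/+) Jun, at 0.18, and Nr4a1 lie above the 95th percentile of genes of like level, and in Dot1l(fl/+) all members but Jun lie high, with Fos at 0.85.

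Most members shared the same extreme pools. Dot1l(fl/+) replicate 2 was the highest of the 9 libraries for 8 members, as it was for 16.9% of all genes, and Dot1l(fl/+) replicate 3 was the lowest for 10 members, as it was for 16.8% of all genes. Both held for 8 members and for 3.30% of all genes. The mean of the members' log2 CPM, each centred on its own mean over the 9 libraries, was 0.51 in Dot1l(fl/+) replicate 2, -0.53 in Dot1l(fl/+) replicate 3 and -0.23 in Dot1l(fl/fl) replicate 3, the shallowest library. It lay between -0.08 and 0.12 in the other 6 libraries. Dot1l(fl/+) replicate 1, of the same genotype as both extremes, was at 0.12. Replicate 3 had the lowest mean of its genotype in all 3 genotypes, at -0.08 in controls. It was the lowest library of each genotype for 4 of 10 members, Fos, Egr1, Nr4a1 and Dusp1, and for 3.50% of all genes.

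The step between Dot1l(fl/+) replicates 2 and 3 was chosen after the values were seen. Its intervals cover counting error only, not the spread between pools. Fos had 1190 counts in Dot1l(fl/+) replicate 2 and 351 in replicate 3, a CPM ratio of 3.14 (exact 95% interval 2.78 to 3.55, counting error only). The interval was 2.27 to 2.64 for Egr1, 2.23 to 2.60 for Arc and 2.23 to 2.80 for Nr4a1. For Npas4, with 252 and 106 counts, it was 1.75 to 2.79. Jun had a ratio of 1.01 (0.958 to 1.07). In all, 8 members exceeded 1.5 in this ratio, as did 5.04% of all genes. Its median was 2.30 over the members and 1.00 over all genes.

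Among 34 other immediate early genes, Fosl1 was too low to test. Of the 33 tested, 29 were higher in Dot1l(fl/+) replicate 2 than in replicate 3, 10 of them by over 1.5 times (5.04% of all genes), with a median ratio of 1.38 beside 1.00 over all genes. Those with the same readout as the members included Egr2 at 3.96 (2.02 to 8.46, from 47 and 11 counts), the matricellular protein gene Ccn2 at 3.77 (3.08 to 4.64), Egr4 at 2.50 (1.94 to 3.24), Klf4 at 2.43 (1.97 to 3.02) and the ERK phosphatase gene Dusp5 at 2.21 (1.77 to 2.78). In contrast, Jund, an AP-1 partner that is expressed without stimulation, was at 0.847 (0.794 to 0.902), Zfp36, whose product destabilises mRNAs, at 0.722 (0.549 to 0.946), and Klf6, a zinc finger factor, at 1.01. Of the 12 later activity-regulated genes, which respond over hours, 6 were higher in replicate 2, 2 exceeded 1.5 times, again beside 5.04% of all genes, and the median ratio was 1.02. In this list Inhba was under 1/1.5, at 0.661 (0.474 to 0.919). Homer1, whose short form is induced by activity, was at 1.68 (1.57 to 1.79), Bdnf at 1.24 (1.13 to 1.36) and Vgf at 0.795 (0.763 to 0.827). Of the 12 glucocorticoid-responsive genes 9 were higher in replicate 2, with a median ratio of 1.23, and 3 exceeded 1.5 times, namely the kinase genes Sgk1 at 1.85 (1.73 to 1.97) and Pdk4 at 1.63 (1.42 to 1.89) and the sulfotransferase gene Sult1a1 at 1.56 (1.17 to 2.09). The median was 1.04 over the 25 upstream genes, of which 15 were higher and 0 exceeded 1.5 times, and 1.01 over the 15 negative regulators, of which 8 were higher and 1 exceeded it. That 1 was Dusp5, which like Dusp4, Dusp6 and Zfp36 is also among the other immediate early genes. Of the negative regulators Dusp2 was under 1/1.5, at 0.661 (from 15 and 21 counts). No test compared the lists.

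**Figure D4:**
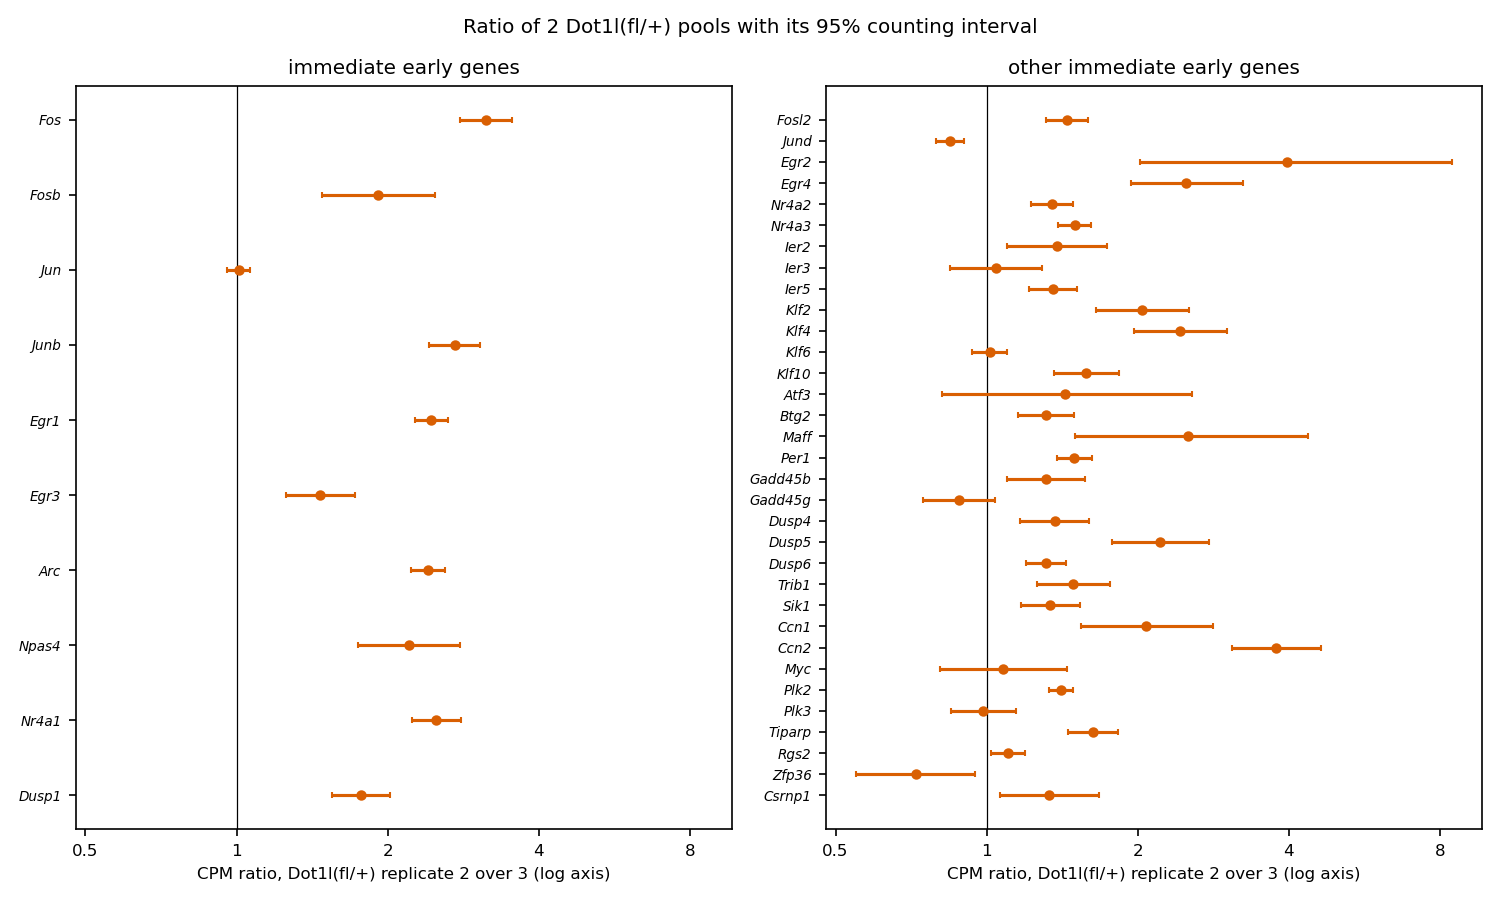
Ratio of CPM in Dot1l(fl/+) replicate 2 to replicate 3 (x axis, log scale) of the members (left) and the 33 other immediate early genes tested (right), with exact 95% intervals for counting error. Fos lies at 3.14 and Jun at 1.01 among the members, and Egr2 and Ccn2 lie farthest right among the others.

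Between genotypes, none of the further lists had a gene past the adjusted threshold, and the counts of list genes are at an unadjusted p under 0.05 (edgeR). Of all genes, 8.40% had this between Dot1l(fl/+) and Dot1l(+/+), 3.93% between Dot1l(fl/fl) and Dot1l(+/+) and 6.48% between Dot1l(fl/fl) and Dot1l(fl/+). Of the 33 other immediate early genes, 0 had this in either comparison with Dot1l(+/+). In Dot1l(fl/fl) vs Dot1l(fl/+) the orphan receptor gene Nr4a3 was higher (log2 0.31 ± 0.13, SE, adjusted p = 0.733) and Jund lower (-0.28 ± 0.13, adjusted p = 0.763). By the F test Zfp36 (adjusted p = 0.822) and Rgs2, a regulator of G protein signalling (adjusted p = 0.832), came next. Of the 12 later genes, 1 was higher in Dot1l(fl/fl) than in Dot1l(+/+), namely Bdnf, the neurotrophin gene (0.20 ± 0.09, adjusted p = 0.999). In Dot1l(fl/fl) vs Dot1l(fl/+) 2 were higher, Bdnf (0.25 ± 0.09, adjusted p = 0.726) and Ptgs2, the cyclooxygenase-2 gene (0.27 ± 0.12, adjusted p = 0.762), and 1 was lower, the granin family gene Vgf (-0.21 ± 0.08, adjusted p = 0.733). For the neuronal pentraxin gene Nptx2 the F test gave an adjusted p of 0.835.

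Of 25 upstream transcription factors and kinases, 2 were lower in Dot1l(fl/+) than in Dot1l(+/+), where 8.40% of all genes reached this p in either direction, the acetyltransferase gene Ep300 (-0.16 ± 0.07, SE, adjusted p = 0.557, edgeR) and Mrtfb, a cofactor of serum response factor (-0.12 ± 0.06, adjusted p = 0.595). Camk2a, the calcium-dependent kinase gene of forebrain excitatory neurons, was the 1 gene higher in Dot1l(fl/fl) than in Dot1l(+/+) (0.28 ± 0.09, adjusted p = 0.999, beside 3.93% of all genes). In Dot1l(fl/fl) vs Dot1l(fl/+) 4 were higher, Camk2a (0.26 ± 0.09, adjusted p = 0.726), Mef2a (0.16 ± 0.05, adjusted p = 0.712), the CREB relative Atf1 (0.29 ± 0.11, adjusted p = 0.726) and Mrtfa (0.13 ± 0.06, adjusted p = 0.758), beside 6.48% of all genes. Beside Camk2a, the summed markers of cortex and hippocampus, whose part in this was not tested, were at 448 to 580 CPM in Dot1l(+/+) and 492 to 663 CPM in Dot1l(fl/fl). None of the 15 negative regulators of the response reached p under 0.05 in any comparison. Their smallest adjusted p-values of the F test were 0.816 for the EGR corepressor gene Nab1, 0.822 for Zfp36, 0.856 for Zfp36l1 and 0.875 for the ERK phosphatase gene Dusp6. Of 12 glucocorticoid-responsive genes, Zbtb16 (-0.31 ± 0.12, adjusted p = 0.541) and Sult1a1 (-0.47 ± 0.19, adjusted p = 0.554) were lower in Dot1l(fl/+) than in Dot1l(+/+), again beside 8.40% of all genes, and Plin4 and Per1 had adjusted F test p-values of 0.883 and 0.904. The list medians of log2 difference lay between -0.05 and 0.07 in all 3 comparisons.

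The genes whose profile over the 9 libraries was most like the mean centred profile of the members were Ahnak2, Gemin6, Amigo3, Purg and Ttc23. Their root mean square differences from it were 0.118, 0.120, 0.127, 0.128 and 0.134 on the log2 scale, where those of the members ran from 0.103 for Egr1 to 0.277 for Fosb. Ahnak2 was at 6.39 CPM in Dot1l(fl/+) replicate 2 and 3.05 in replicate 3, and Purg at 19.8 and 12.5. Amigo3 did not exceed 1.34 CPM in any library.

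Markers of other regions and cell types also differed between the 2 Dot1l(fl/+) pools, and their part in the members' levels was not tested. The 7 markers of cortex and hippocampus summed to 628 CPM in Dot1l(fl/+) replicate 2 and 509 in replicate 3, and 5 of 7 were higher in replicate 2. Over all 9 libraries this sum ran from 448 to 663 CPM. All 5 thalamic markers were lower in Dot1l(fl/+) replicate 2, at 684 CPM against 912 in replicate 3. The 4 choroid plexus markers reached 568 CPM in Dot1l(fl/+) replicate 3, against 29.8 to 167 CPM in the other 8 libraries. The 6 hypothalamic markers, of which 2 were high enough to test and Hcrt, Oxt and Agrp had a library at 0, summed to 123 CPM in Dot1l(fl/+) replicate 1 and 56.0 in replicate 3, against at most 8.41 in all others.

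The 8 dopamine neuron markers summed to 585 to 648 CPM in controls, 452 to 589 in heterozygotes and 434 to 463 in homozygotes. Their range in homozygotes lay below that in controls. They were at 589 CPM in Dot1l(fl/+) replicate 2 and 452 in replicate 3, and 7 of 8 were higher in replicate 2, as the members were. All 5 astrocyte markers were higher in Dot1l(fl/+) replicate 2 (1544 CPM) than in replicate 3 (1278 CPM), and 4 of 5 oligodendrocyte markers lower (9610 and 10942 CPM in all). Meningeal markers (98.6 and 64.5 CPM) and mural cell markers (227 and 201 CPM) were higher in replicate 2. Microglial markers summed to 352 and 329 CPM, endothelial markers to 219 and 240, markers of GABA neurons to 944 and 978, of striatal neurons to 54.2 and 65.1, and of blood to 108 and 152 CPM. Mitochondrial transcripts took 4.58% and 3.53% of the counts in these 2 libraries, and 3.68% to 4.63% in the other 7.

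**Figure D5:**
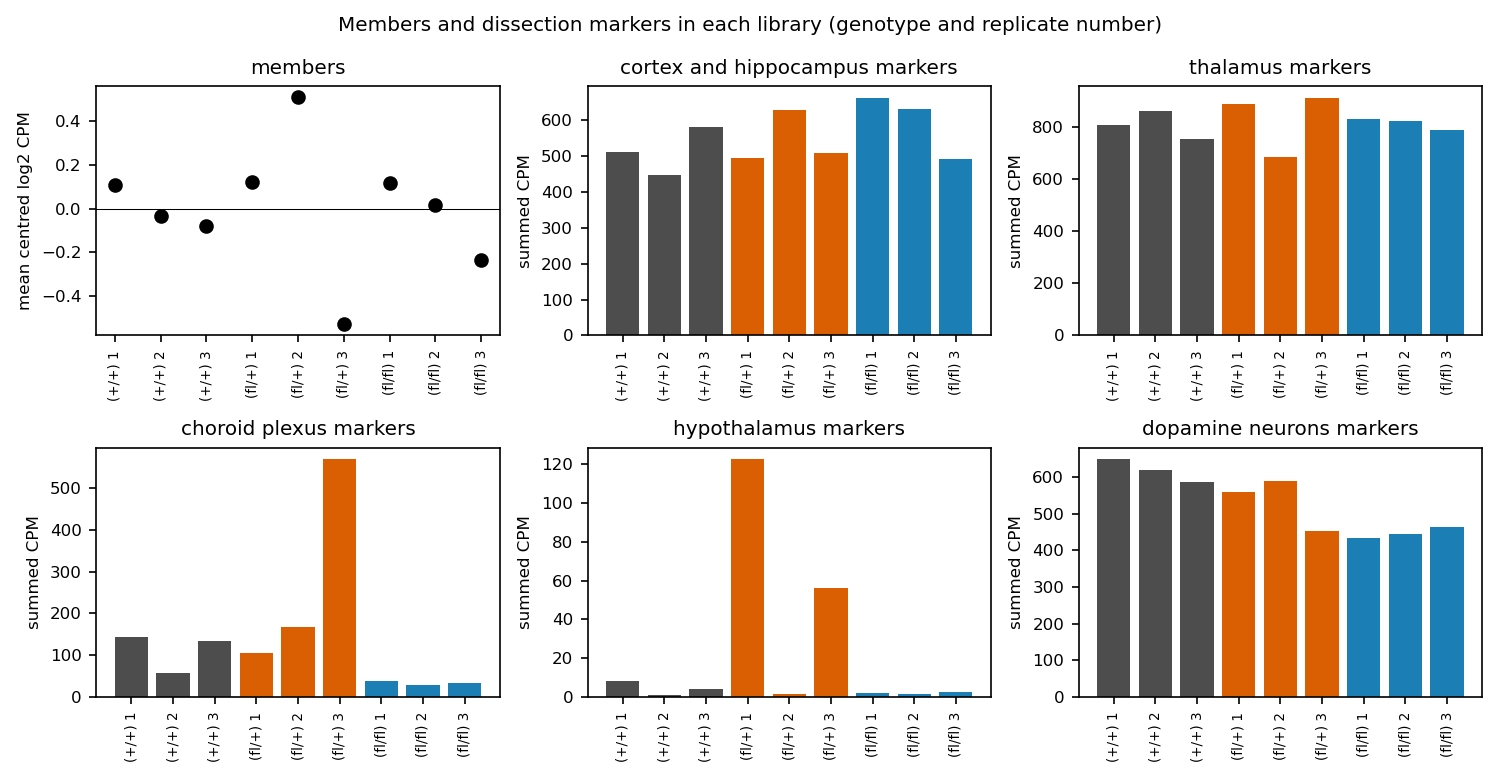
Mean centred log2 CPM of the 10 members (first panel) and summed CPM of 5 marker lists (bars, from 0) in each library, named by genotype and replicate (x axis) and coloured by genotype. The members are highest in Dot1l(fl/+) replicate 2 (0.51) and lowest in Dot1l(fl/+) replicate 3 (-0.53), the library with the most choroid plexus marker counts (568 CPM).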

How the data were processed

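RNA from dissected midbrain was sequenced in 9 libraries, 3 per genotype. Per the labels and the study's methods, libraries were directional, reads were trimmed with Trimmomatic 0.30 after bcl2fastq 2.17, and the genome was GRCm38. The aligner and counter are not given in the sources used here. The authors deposited whole-number read counts per Ensembl gene, not normalized, for each library. They also deposited their own DESeq2 1.10.1 comparisons, which were not used here. Symbols and positions came from GENCODE M21.

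Counts were tested with edgeR 4.0.16 (quasi-likelihood, all 9 libraries, genotype as the only term, filterByExpr, TMM, Benjamini-Hochberg). log2 CPM used a prior count of 2. The steps were tested on simulated data. DESeq2 1.42.0, other filters and scalings, a replicate block and leaving out each library were alternatives, and leaving out both outlying Dot1l(fl/+) libraries was added after the data were seen. Per-library depth is given with the results. Intervals of ratios are exact for 2 counts and cover counting error only. Pools are separate mice, as far as the labels tell, so p-values measure the spread between pools.

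The members, lists and marker lists were chosen with earlier results of these data known. Genes named from a further list were those past the adjusted threshold or, with none, the 4 with the smallest F test p; Mrtfa, Mrtfb and the genes named for their ratio between 2 pools were added after their values were seen. The 5 genes most like the members had the smallest root mean square difference.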

Additional observations from a re-analysis of the deposited data

How the results depend on the processing

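With 3 pools per genotype and this spread, differences of the members below about 2 SE could not be told from none. No member passed the adjusted threshold under any alternative except Arc with no filter, given above. Genes past it, 0 in each comparison as reported, were, for heterozygotes against controls, homozygotes against controls and homozygotes against heterozygotes in this order, 3, 3 and 14 with DESeq2 on all 9 libraries, 45, 8 and 13 with DESeq2 on the 6 compared, 1, 4 and 0 with edgeR on the 6 compared, and 251, 118 and 164 with no filter, where members under an unadjusted p of 0.05 numbered 2, 2 and 7, beside 7.61%, 4.27% and 6.34% of all genes. The cause was not tested. Leaving out 1 library at a time gave 0 to 5, 0 to 0 and 0 to 12 genes, 0 to 7, 0 to 1 and 0 to 7 members under that p, beside 5.45% to 12.5%, 2.13% to 5.26% and 4.90% to 9.79% of all genes, and medians over the members of -0.18 to 0.39, -0.12 to 0.06 and -0.49 to 0.14. Without both Dot1l(fl/+) replicates 2 and 3, the lone library being assumed to vary like the others, 9 genes passed in each comparison with Dot1l(fl/+), with 1 member under p 0.05 against Dot1l(+/+) (3.69% of all genes) and 3 in Dot1l(fl/fl) vs Dot1l(fl/+) (4.93%). There Fosb turned to -0.039, Junb to -0.0052, Nab1 to 0.012 and Dusp6 to -0.0055 against Dot1l(+/+), and Jun to -0.036, Ep300 to -0.053 and Dusp6 to 0.11 in Dot1l(fl/fl) vs Dot1l(fl/+).

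Leaving out 1 library also turned single genes. In Dot1l(fl/+) vs Dot1l(+/+) the range was -0.19 to 0.54 for Fos, -0.16 to 0.35 for Fosb, -0.31 to 0.42 for Junb, -0.22 to 0.40 for Egr1, -0.25 to 0.38 for Arc, -0.13 to 0.53 for Nr4a1, -0.13 to 0.43 for Npas4, -0.20 to 0.097 for Egr3, -0.020 to 0.34 for Dusp1 and -0.27 to 0.030 for Nr4a3. In Dot1l(fl/fl) vs Dot1l(+/+) it was -0.094 to 0.13 for Fos, -0.13 to 0.093 for Egr1, -0.13 to 0.12 for Nr4a1, -0.18 to 0.024 for Dusp1, -0.14 to 0.032 for Jun, -0.17 to 0.092 for Jund, -0.26 to 0.28 for Plin4 and -0.11 to 0.15 for Per1. In Dot1l(fl/fl) vs Dot1l(fl/+) it was -0.54 to 0.20 for Fos, -0.54 to 0.20 for Junb, -0.43 to 0.19 for Egr1, -0.57 to 0.066 for Arc, -0.56 to 0.10 for Nr4a1 and -0.16 to 0.078 for Dusp6. Prior counts of 0.5 and 5 moved no member's SD by over 1.5 times.

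With a replicate block, 0, 3 and 3 genes passed, members under an unadjusted p of 0.05 numbered 0, 1 and 0, and the medians were 0.07, -0.07 and -0.18. Same-numbered libraries correlated at 0.0222 to 0.317 in their deviations from the genotype means, and 7 of 9 libraries correlated best with their own number. All 9 correlations were above 0, over 0.1 in the 6 pairs of replicates 1 and 2 and below it in the 3 pairs of replicate 3. The study's methods say that pools were built from sets of the 3 genotypes per nest, which is a reason to expect pairs, without saying which libraries belong together. The values reported are unblocked because the threshold set for taking the numbers as pairs, over 0.1 in every pair, was not met, and pairing is not excluded.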

Other observations

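Among the 12 glucocorticoid-responsive genes, which respond to stress hormone, some were highest in the same replicate number throughout. Replicate 2 was the highest library of its genotype in all 3 genotypes for 4 of 12, Sgk1, Per1, Cdkn1a and Klf9, and for 5.55% of all genes. Sgk1, a kinase gene induced by glucocorticoids, was at 57.0, 77.7 and 49.7 CPM in controls, at 53.3, 91.3 and 49.5 in heterozygotes, and at 55.6, 77.9 and 69.0 in homozygotes. Per1, a clock gene, was at 51.0, 54.8 and 44.8 CPM, at 43.9, 56.1 and 37.5, and at 44.4, 62.4 and 48.8. Of the 10 members Egr1 had this order, whereas replicate 1 was the highest in all 3 genotypes for Jun and Npas4 (4.27% of all genes), and replicate 3 the lowest for the 4 members given above. Replicate 2 was also the highest throughout for 6 of the 33 other immediate early genes (Egr4, Klf2, Per1, Dusp4, Trib1 and Tiparp, with Per1 in both lists), 2 of the 15 negative regulators (Dusp4 and Spred1), 1 of the 12 later genes (Bdnf) and 1 of the 25 upstream genes (Crem). In the glucocorticoid list Zbtb16 and Plin4 had the opposite order, with replicate 2 the lowest library in all 3 genotypes (5.69% of all genes). Fkbp5, another gene of that list, had neither order. These genes were picked out after their values were seen, the labels do not say what the replicate number stands for, and the pattern was not tested.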
